A study of Homo sapiens with 8 samples.

Results

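The genes described here are 51 listed genes of the hypoxia-inducible factor (HIF) pathway and of glycolysis, measured in human hepatoma cells with and without knockdown of KLHL23, a Kelch-like protein. A member is a gene of that list with at least 1 probe set that the array annotation pairs with its symbol alone. Its value is that of its brightest probe set over the 8 arrays. Of the 51 listed genes, 50 were measured, among 19775 genes in all, and no probe set was paired with the carbonic anhydrase gene CA9 in the annotation used here. The members were covered by 126 probe sets, with several for 35 of them. The list was chosen with earlier results of these data known, so its shares beside those of all genes are descriptive.

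The study has 2 hepatoma lines, Hep-3B and Huh7, each infected with lentivirus carrying a short hairpin RNA. The 4 groups are Hep-3B shKLHL23, Hep-3B shLuc, Huh7 shKLHL23 and Huh7 shLuc, with 2 arrays each, numbered replicate 1 and 3. The shLuc virus is the control. All 4 groups share the medium with 10% FBS, the lentiviral infection at a multiplicity of 2 and the drug selection after 48 h, so the control cells are infected and selected cells too. Each line is 1 established hepatoma line, the labels give no oxygen level for the cultures, and they do not state whether the 2 arrays of a group are separate cultures. The p-values therefore rest on the spread between these arrays, which may be technical.

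HIF is a heterodimer of an oxygen-labile alpha subunit (HIF1A or EPAS1) and the constitutive ARNT. With oxygen present, the prolyl hydroxylases EGLN1 and EGLN3 mark the alpha subunit for VHL, the substrate receptor of a ubiquitin ligase, and HIF1AN hydroxylates its activation domain. Stabilised HIF binds hypoxia response elements and raises genes for glucose uptake, glycolysis, vessel growth, collagen modification and mitophagy. HIF alpha subunits are set mainly at the protein level, which arrays do not measure.

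Values are log2 expression from robust multi-array averaging (RMA), on which 1 unit is a 2-fold change. The members' single values ran between 3.17 (PPFIA4) and 13.03 (LDHA), and no member lay below the lower quartile of all probe sets in any array. KLHL23 was 7.21 and 6.15 in Hep-3B shKLHL23 cells, against 7.81 and 7.84 in Hep-3B shLuc cells, a difference of -1.14 (SE 0.27) that did not pass the test (adjusted p = 0.0833). In Huh7 shKLHL23 cells it was 5.78 and 5.88, against 7.89 and 7.87 in Huh7 shLuc cells (-2.05, SE 0.27, adjusted p = 0.00363). In Hep-3B the knockdown array with the lower KLHL23, replicate 3, was also the one with the lower members. There replicate 1 was higher than replicate 3 for 41 of 50 members, by a median of 0.23. In Huh7 the median over members was 0.02 above the controls in each knockdown array. A link between the levels of KLHL23 and of the members was not tested, and 2 arrays could not show one. The 8 measured hepatocyte-lineage markers averaged 11.9 to 12.4 in each array, the 4 endothelial markers 4.19 to 4.68, the 5 stellate and fibroblast markers 4.47 to 4.77 and the 5 blood and macrophage markers 6.10 to 6.56, where LYZ was highest and PTPRC, the pan-leukocyte antigen, was at 2.33 to 2.63. As each line is 1 established hepatoma line, the averages of the other lists are array levels and not a content of other cell types. Within a line, fewer cells with a transcript and less of it per cell cannot be told apart.

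The DNA letters at the start of the genes are shown first, since HIF binds a short core in its response elements. RefSeq (GRCh38.p14) gave a 300-base promoter window, 250 bases before and 50 after a start, for 43 of the 51 listed genes. The core ACGTG was searched on both strands, where it reads ACGTG or CACGT; the palindrome CACGTG holds both and is the E-box of other factors too. The core lay in 31 of 65 member windows (47.7%) and in 21.4% of all 35116 windows, and the palindrome in 25.6% of the 43 genes and in 8.77% of all 27305 genes with a window. The windows below belong to 3 members with the largest differences in Hep-3B that have one, and to 1 glycolytic (ALDOC) and 1 collagen-modifying member (P4HA2) that rose in Huh7. Capitals mark the core.
ANKRD37, chr4:185396591-185396890, plus strand: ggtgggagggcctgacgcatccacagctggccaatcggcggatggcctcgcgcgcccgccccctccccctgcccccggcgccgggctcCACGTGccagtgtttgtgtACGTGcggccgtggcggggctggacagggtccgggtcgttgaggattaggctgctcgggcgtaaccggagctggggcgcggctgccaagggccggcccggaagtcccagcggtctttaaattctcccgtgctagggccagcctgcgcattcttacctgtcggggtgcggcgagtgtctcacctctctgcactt
BHLHE40, chr3:4979187-4979486, plus strand: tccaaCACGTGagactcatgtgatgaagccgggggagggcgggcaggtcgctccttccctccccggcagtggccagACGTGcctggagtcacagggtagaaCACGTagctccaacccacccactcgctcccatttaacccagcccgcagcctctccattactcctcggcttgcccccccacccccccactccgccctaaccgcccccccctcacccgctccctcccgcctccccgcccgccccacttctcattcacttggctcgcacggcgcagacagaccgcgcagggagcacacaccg
DDIT4, chr10:72273674-72273973, plus strand: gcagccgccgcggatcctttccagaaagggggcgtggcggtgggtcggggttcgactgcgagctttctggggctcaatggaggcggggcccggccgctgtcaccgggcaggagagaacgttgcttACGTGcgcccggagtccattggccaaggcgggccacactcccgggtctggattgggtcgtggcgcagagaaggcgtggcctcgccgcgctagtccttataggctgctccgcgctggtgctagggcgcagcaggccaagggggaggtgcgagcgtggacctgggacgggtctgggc
ALDOC, chr17:28576846-28577145, minus strand: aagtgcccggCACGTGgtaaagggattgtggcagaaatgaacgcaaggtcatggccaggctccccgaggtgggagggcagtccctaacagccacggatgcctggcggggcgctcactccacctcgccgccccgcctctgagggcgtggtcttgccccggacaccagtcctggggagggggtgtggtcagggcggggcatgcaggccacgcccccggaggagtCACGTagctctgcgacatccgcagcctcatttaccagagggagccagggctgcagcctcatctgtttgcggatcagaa
P4HA2, chr5:132227042-132227341, minus strand: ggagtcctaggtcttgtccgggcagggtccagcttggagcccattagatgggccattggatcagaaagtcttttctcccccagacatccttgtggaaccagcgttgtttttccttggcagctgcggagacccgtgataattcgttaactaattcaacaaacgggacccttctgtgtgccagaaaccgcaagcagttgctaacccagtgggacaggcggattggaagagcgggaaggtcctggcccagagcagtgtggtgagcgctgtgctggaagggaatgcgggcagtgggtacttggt
The ANKRD37 window has 3 overlapping or neighbouring matches, that of BHLHE40 has 4, that of ALDOC has 3 and that of DDIT4 has 1, which begins 125 bases before the start. The P4HA2 window holds 0 matches, which says only that these letters are not in it.

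In Hep-3B cells nearly all members were lower with the knockdown, by small to moderate amounts that did not pass the test gene by gene. Both shKLHL23 arrays lay below both shLuc arrays for 40 of 50 members (80%), whereas 23.5% of all genes did so, and both lay above for 3 members (6%), against 29.4% of all genes. The median member differed by -0.43, with 45 of 50 below 0, where the median of all genes was 0.02. After Benjamini-Hochberg adjustment over all genes, limma called 0 members higher (0.536% of all genes) and 0 lower (0.157% of all genes). At an unadjusted p under 0.05 limma gave 32 members lower (7.75% of all genes) and 1 higher (9.91% of all genes), and the lowest adjusted p of a member was 0.067 (VHL).

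The number of calls in Hep-3B depended on the settings. With all arrays, 12 members were called with array weights (3.39% of all genes) and 13 with trend and robust moderation (4.30% of all genes). Without replicate 1 of Hep-3B shKLHL23, 19 members were called lower and 1 higher (5.74% of all genes called), on the assumption that the lone knockdown array varies like the other groups. The median member was -0.28 in replicate 1 alone, with 43 of 50 below 0, and -0.52 in replicate 3 alone, with 46 below 0. RNA quality moved with the groups too: the 3' minus 5' probe difference of ACTB was 0.737 and 0.753 in Hep-3B shKLHL23, against 0.442 and 0.537 in Hep-3B shLuc, and 0.525 and 0.546 in Huh7 shKLHL23, against 0.873 and 0.833 in Huh7 shLuc. The same difference of GAPDH was 0.223 and 0.236 in Hep-3B shKLHL23, against 0.117 and 0.120 in Hep-3B shLuc, and 0.148 and 0.112 in Huh7 shKLHL23, against 0.132 and 0.089 in Huh7 shLuc, where the groups overlap. The part of RNA quality in the results was not tested.

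In Huh7 cells the same genes split in both directions. Limma called 7 members higher (14%, against 5.75% of all genes) and 3 lower (6%, against 7.73% of all genes). The shares of all genes include many dim genes: a filter on dim genes kept 48 of 50 members but 13074 of 19775 genes. Among the genes kept, 25.1% were called in Huh7 in both directions. The arrays did not overlap for 19 members higher (38%, against 26.5% of all genes) and 16 lower (32%, against 27.2% of all genes). The median member differed by -0.01, with 25 members below 0 and 25 above. The median over members was 0.02 in each Huh7 knockdown array, while single members differed between replicates 1 and 3, such as DDIT4 (-4.00 and -1.65) and LOX (-1.62 and -0.67). The number of calls, 10 members and 13.5% of all genes in both directions, was 3 members without replicate 1 of Huh7 shLuc (2.82% of all genes) and 2 without its replicate 3 (2.76%). It was 7 without replicate 1 of Huh7 shKLHL23 (7.32%), and 6 without either array of Hep-3B shLuc (9.27%), which enters through the shared spread.

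**Figure D1:**
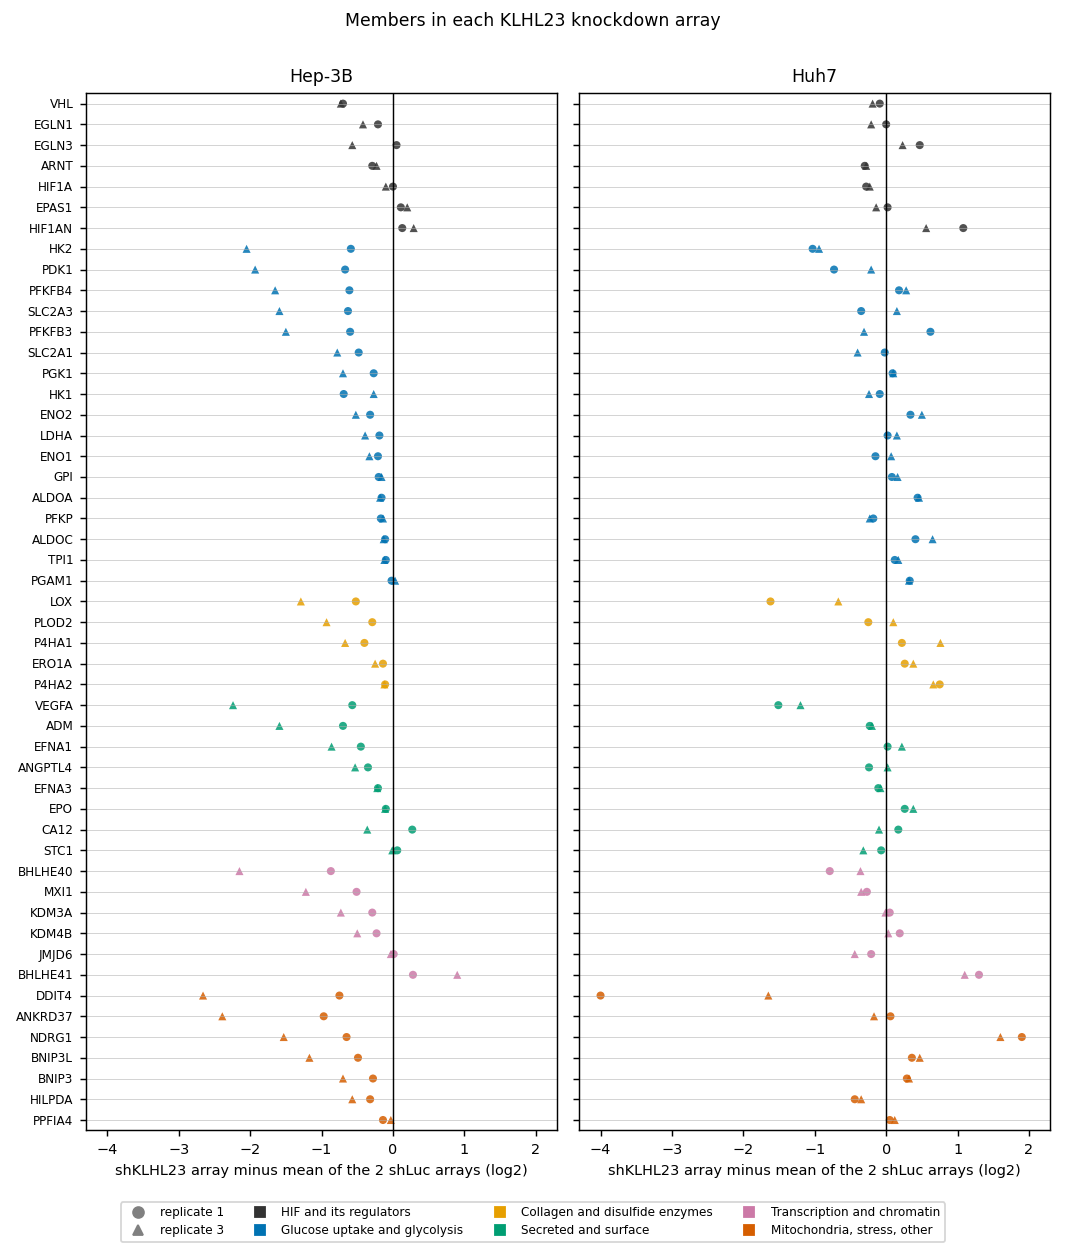
Each KLHL23 knockdown array minus the mean of the 2 shLuc arrays of its line (log2, horizontal axis) for the 50 measured members, grouped by role, with circles for replicate 1 and triangles for replicate 3. In Hep-3B most points lie left of 0 with replicate 3 further left, and in Huh7 the points lie on both sides, with DDIT4 at -4.00 and -1.65 and NDRG1 at 1.90 and 1.60.

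Among the HIF subunits and their regulators, the RNA of the alpha subunits differed little. HIF1A was 12.14 and 12.04 in Hep-3B shKLHL23, against 12.12 and 12.17 in Hep-3B shLuc (-0.05, SE 0.09), and 11.66 and 11.72 in Huh7 shKLHL23, against 11.96 and 11.93 in Huh7 shLuc (-0.25, SE 0.09, adjusted p = 0.0944). EPAS1, the alpha subunit of HIF-2, was 11.18 and 11.28 in Hep-3B shKLHL23, against 11.08 and 11.06 in Hep-3B shLuc, and 10.84 and 10.68 in Huh7 shKLHL23, against 10.79 and 10.85 in Huh7 shLuc. HIF1A arrays overlapped in Hep-3B and were lower without overlap in Huh7. EPAS1 arrays overlapped in Huh7 and were higher without overlap in Hep-3B (0.16, SE 0.09). No alpha subunit passed in either line.

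ARNT, the shared beta subunit, was 6.95 and 7.02 in Hep-3B shKLHL23, against 7.15 and 7.35 in Hep-3B shLuc, and 6.92 and 6.95 in Huh7 shKLHL23, against 7.20 and 7.25 in Huh7 shLuc. The difference was -0.26 in Hep-3B and -0.29 in Huh7, and the mean over the lines passed (-0.28, SE 0.07, adjusted p = 0.029). However, it was 0.09 without the x and s probe sets, those with names ending in x_at or s_at. VHL was 6.50 and 6.47 in Hep-3B shKLHL23, against 7.36 and 7.04 in Hep-3B shLuc (-0.71, SE 0.14, adjusted p = 0.067), and 6.52 and 6.42 in Huh7 shKLHL23, against 6.78 and 6.43 in Huh7 shLuc (-0.14). The Huh7 arrays of VHL overlapped, and its mean over the lines passed (-0.42, SE 0.10, adjusted p = 0.0245). That mean was 0.01 on the probe set left without the x and s probe sets, which lay at 2.06 to 2.24. Such levels are below the lower quartile of each array (3.08 to 3.12), so the value of 0.01 says little about VHL.

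Of the oxygen-sensing hydroxylases, HIF1AN rose in Huh7 on its brightest probe set. It was 8.80 and 8.29 in Huh7 shKLHL23, against 7.68 and 7.77 in Huh7 shLuc (0.82, SE 0.16, adjusted p = 0.0144). In Hep-3B shKLHL23 it was 7.96 and 8.13, against 7.93 and 7.74 in Hep-3B shLuc (0.21). With every probe set tested on its own, its others differed by 0.34 and 0.43 in Huh7 and did not pass (adjusted p = 0.278 and 0.0542). Its mean over the lines (0.52, SE 0.11, adjusted p = 0.0193) was not called with the mean of probe sets. EGLN1 was 10.44 and 10.22 in Hep-3B shKLHL23, against 10.60 and 10.68 in Hep-3B shLuc (-0.31, SE 0.11), and 9.74 and 9.52 in Huh7 shKLHL23, against 9.76 and 9.71 in Huh7 shLuc (-0.11). EGLN3, itself a HIF target, was 5.37 and 4.76 in Hep-3B shKLHL23, against 5.31 and 5.33 in Hep-3B shLuc, and 4.79 and 4.56 in Huh7 shKLHL23, against 4.58 and 4.07 in Huh7 shLuc. Both EGLN genes missed the test in each line on their brightest probe set, and EGLN3 arrays overlapped in both lines.

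Among the members for glucose uptake and glycolysis, 16 of 17 lay below their controls in Hep-3B without overlap, against 23.5% of all genes. Their median was -0.42, and none of the 17 was called there. Glycolytic genes outside the members, a list chosen with earlier results known, had a median of 0.09 in Hep-3B. HK2, the inducible hexokinase, was 9.25 and 7.79 in Hep-3B shKLHL23, against 9.79 and 9.89 in Hep-3B shLuc (-1.32, SE 0.36), and 8.47 and 8.56 in Huh7 shKLHL23, against 9.52 and 9.48 in Huh7 shLuc (-0.98, SE 0.36). Both lines were lower without overlap, neither passed alone (adjusted p = 0.112 and 0.116), and the mean over the lines did (-1.15, SE 0.26, adjusted p = 0.0193). PDK1, the kinase that shuts pyruvate dehydrogenase, was 8.43 and 7.18 in Hep-3B shKLHL23, against 9.09 and 9.12 in Hep-3B shLuc, and 7.20 and 7.71 in Huh7 shKLHL23, against 7.93 and 7.92 in Huh7 shLuc. Its mean over the lines passed (-0.89, SE 0.24, adjusted p = 0.0391). The mean calls of HK2 and PDK1 were both lost with trend and robust moderation, among other alternatives.

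The glucose transporter SLC2A1 was 9.81 and 9.51 in Hep-3B shKLHL23, against 10.28 and 10.30 in Hep-3B shLuc, and 7.39 and 7.01 in Huh7 shKLHL23, against 7.41 and 7.41 in Huh7 shLuc. The mean over the lines passed (-0.42, SE 0.10, adjusted p = 0.0255), with little difference in 1 of the Huh7 knockdown arrays. It was -0.26, with no call, without the x and s probe sets, and the other SLC2A1 probe set differed by 0.24 in Huh7, where it was dim (3.47 to 4.02). The transporter SLC2A3 differed by -1.11 in Hep-3B (SE 0.27, adjusted p = 0.0899) and by -0.10 in Huh7. The bifunctional enzymes PFKFB4 and PFKFB3, which set the level of the phosphofructokinase activator fructose 2,6-bisphosphate, differed by -1.13 and -1.05 in Hep-3B and by 0.23 and 0.15 in Huh7, with no call in either line.

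In Huh7, 3 enzymes of middle and lower glycolysis rose. The aldolase ALDOA was 12.01 and 12.03 in Huh7 shKLHL23, against 11.50 and 11.63 in Huh7 shLuc (0.45, SE 0.09, adjusted p = 0.0141), and 12.45 and 12.42 in Hep-3B shKLHL23, against 12.63 and 12.58 in Hep-3B shLuc (-0.17). The second aldolase ALDOC was 6.60 and 6.83 in Huh7 shKLHL23, against 6.19 and 6.18 in Huh7 shLuc (0.53, SE 0.10, adjusted p = 0.0121), and 6.98 and 6.96 in Hep-3B shKLHL23, against 7.10 and 7.08 in Hep-3B shLuc (-0.12). Phosphoglycerate mutase PGAM1 was 11.70 and 11.69 in Huh7 shKLHL23, against 11.33 and 11.41 in Huh7 shLuc (0.33, SE 0.09, adjusted p = 0.0389), and 11.80 and 11.85 in Hep-3B shKLHL23, against 11.83 and 11.81 in Hep-3B shLuc. All 3 were separate from their controls in Huh7, by amounts under 1 unit. The call of ALDOA was lost with Huh7 fitted alone, and those of ALDOA and ALDOC without either array of Huh7 shLuc. The call of PGAM1 was kept under 7 of 16 alternatives and lost, among others, with array weights or with Huh7 fitted alone. The other glycolytic members (HK1, GPI, PFKP, TPI1, PGK1, ENO1, ENO2 and LDHA) differed by -0.49 to -0.11 in Hep-3B and by -0.21 to 0.42 in Huh7, with no call.

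Among enzymes that modify collagen or form disulfides, 2 moved apart in Huh7. P4HA2, a collagen prolyl 4-hydroxylase subunit, was 9.95 and 9.86 in Huh7 shKLHL23, against 9.17 and 9.22 in Huh7 shLuc (0.71, SE 0.09, adjusted p = 0.00276), and 9.32 and 9.31 in Hep-3B shKLHL23, against 9.44 and 9.43 in Hep-3B shLuc (-0.12). With the mean of its probe sets in place of the brightest, P4HA2 was 0.24 in Huh7 (adjusted p = 0.104), 0.10 in the mean over the lines and 0.28 between the lines, with no call in any. LOX, the lysyl oxidase that cross-links collagen, was 8.72 and 9.67 in Huh7 shKLHL23, against 10.36 and 10.33 in Huh7 shLuc (-1.15, SE 0.31, adjusted p = 0.0414), and 7.78 and 7.01 in Hep-3B shKLHL23, against 8.29 and 8.31 in Hep-3B shLuc (-0.90, SE 0.31). LOX was lower without overlap in both lines and its mean over the lines passed (-1.03, SE 0.22, adjusted p = 0.0161). Its Huh7 difference was -0.67, past no threshold, without replicate 1 of Huh7 shKLHL23. The Huh7 call of LOX was also lost with the mean of probe sets, with trend and robust moderation and with Huh7 fitted alone. The other 3, the prolyl hydroxylase subunit P4HA1, the lysyl hydroxylase PLOD2 and the oxidoreductase ERO1A, differed by -0.61 to -0.19 in Hep-3B and by -0.07 to 0.49 in Huh7 with no call.

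VEGFA, the vascular growth factor, lay below its controls in both lines on its brightest probe set. It was 10.44 and 8.77 in Hep-3B shKLHL23, against 10.97 and 11.06 in Hep-3B shLuc (-1.41, SE 0.42, adjusted p = 0.132). In Huh7 shKLHL23 it was 9.39 and 9.70, against 10.91 and 10.89 in Huh7 shLuc (-1.36, SE 0.42, adjusted p = 0.0673). Neither line passed alone although both were separate from their controls, and the mean over the lines passed (-1.38, SE 0.30, adjusted p = 0.0167). The vasodilator peptide gene ADM was 8.59 and 7.69 in Hep-3B shKLHL23, against 9.34 and 9.23 in Hep-3B shLuc (-1.15, SE 0.23, adjusted p = 0.0678), and 7.48 and 7.50 in Huh7 shKLHL23, against 7.66 and 7.76 in Huh7 shLuc (-0.22). Its mean over the lines passed (-0.68, SE 0.17, adjusted p = 0.0266). The other secreted and surface members (STC1, ANGPTL4, EPO, EFNA1, EFNA3 and CA12) differed by -0.66 to 0.02 in Hep-3B and by -0.20 to 0.32 in Huh7, with no call.

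The circadian repressor pair BHLHE40 and BHLHE41, both HIF targets, moved in opposite directions in the mean over the lines. BHLHE40 was 9.36 and 8.08 in Hep-3B shKLHL23, against 10.24 and 10.22 in Hep-3B shLuc (-1.51, SE 0.34, adjusted p = 0.0763), and 7.61 and 8.04 in Huh7 shKLHL23, against 8.35 and 8.46 in Huh7 shLuc (-0.58, SE 0.34). Its mean over the lines fell by 1.04 (SE 0.24, adjusted p = 0.0212). BHLHE41 was 4.60 and 5.22 in Hep-3B shKLHL23, against 4.47 and 4.17 in Hep-3B shLuc (0.59, SE 0.21), and 5.40 and 5.21 in Huh7 shKLHL23, against 4.27 and 3.93 in Huh7 shLuc (1.20, SE 0.21, adjusted p = 0.0089). Its mean over the lines rose by 0.90 (SE 0.15, adjusted p = 0.00688), at a low level on the array. Without the x and s probe sets, BHLHE41 was 0.21 in Huh7 and 0.17 in the mean over the lines, with no call in either. The probe set left lay at 2.15 to 2.61, below the lower quartile of each array (3.08 to 3.12). All 3 other probe sets of BHLHE41 were dim, at 2.15 to 3.50, and differed by 0.01 to 0.21 in Huh7. Values at such levels say little about the gene. The Huh7 call was also lost without replicate 1 of Huh7 shKLHL23 or replicate 3 of Huh7 shLuc. MXI1, a MAX-binding antagonist of MYC, was 8.27 and 7.56 in Hep-3B shKLHL23, against 8.78 and 8.78 in Hep-3B shLuc, and 8.63 and 8.56 in Huh7 shKLHL23, against 8.85 and 8.96 in Huh7 shLuc. All knockdown arrays of MXI1 were below their controls and its mean passed (-0.59, SE 0.14, adjusted p = 0.0217). The histone demethylases KDM3A and KDM4B and the hydroxylase JMJD6 differed by -0.51 to -0.01 in Hep-3B and by -0.32 to 0.11 in Huh7, with no call.

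The largest differences of all members stood among the stress and other targets. DDIT4, an inhibitor of mTORC1, was 7.03 and 9.38 in Huh7 shKLHL23, against 10.97 and 11.08 in Huh7 shLuc (-2.82, SE 0.74, adjusted p = 0.0381), and 11.37 and 9.46 in Hep-3B shKLHL23, against 12.13 and 12.12 in Hep-3B shLuc (-1.71, SE 0.74, adjusted p = 0.276). Its knockdown arrays were the most scattered of the members, yet all lay below their controls. The Huh7 difference was -1.65 with no call without replicate 1 of Huh7 shKLHL23. The mean over the lines passed (-2.26, SE 0.52, adjusted p = 0.0216). With trend and robust moderation, neither the Huh7 difference nor the mean over the lines was called. The Huh7 call was also lost with Huh7 fitted alone. ANKRD37, an ankyrin-repeat gene, was 7.30 and 5.88 in Hep-3B shKLHL23, against 8.23 and 8.30 in Hep-3B shLuc (-1.68, SE 0.36, adjusted p = 0.0728). In Huh7 it was low in every array, at 4.63 and 4.40 in shKLHL23, against 4.47 and 4.66 in shLuc.

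NDRG1, a stress-responsive gene, lay on opposite sides of its controls in the lines. It was 9.51 and 9.21 in Huh7 shKLHL23, against 7.58 and 7.66 in Huh7 shLuc (1.75, SE 0.24, adjusted p = 0.00418), and 9.49 and 8.61 in Hep-3B shKLHL23, against 10.18 and 10.09 in Hep-3B shLuc (-1.09, SE 0.24, adjusted p = 0.0746). The knockdown arrays of both lines thus lay between the control arrays of Huh7 and those of Hep-3B. HILPDA, which coats lipid droplets and inhibits their lipase, was 7.59 and 7.69 in Huh7 shKLHL23, against 7.97 and 8.10 in Huh7 shLuc (-0.40, SE 0.11, adjusted p = 0.0499), and 7.46 and 7.20 in Hep-3B shKLHL23, against 7.83 and 7.73 in Hep-3B shLuc (-0.45, SE 0.11). The Huh7 call was kept under 6 of 17 alternatives and lost, among others, with further quantile normalization, the mean of probe sets or array weights. Its mean over the lines fell by 0.42 (SE 0.08, adjusted p = 0.0107). The mitophagy receptors BNIP3 and BNIP3L differed by -0.49 and -0.83 in Hep-3B and by 0.30 and 0.41 in Huh7, without a call, and PPFIA4 by -0.09 in Hep-3B and 0.08 in Huh7.

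**Figure D2:**
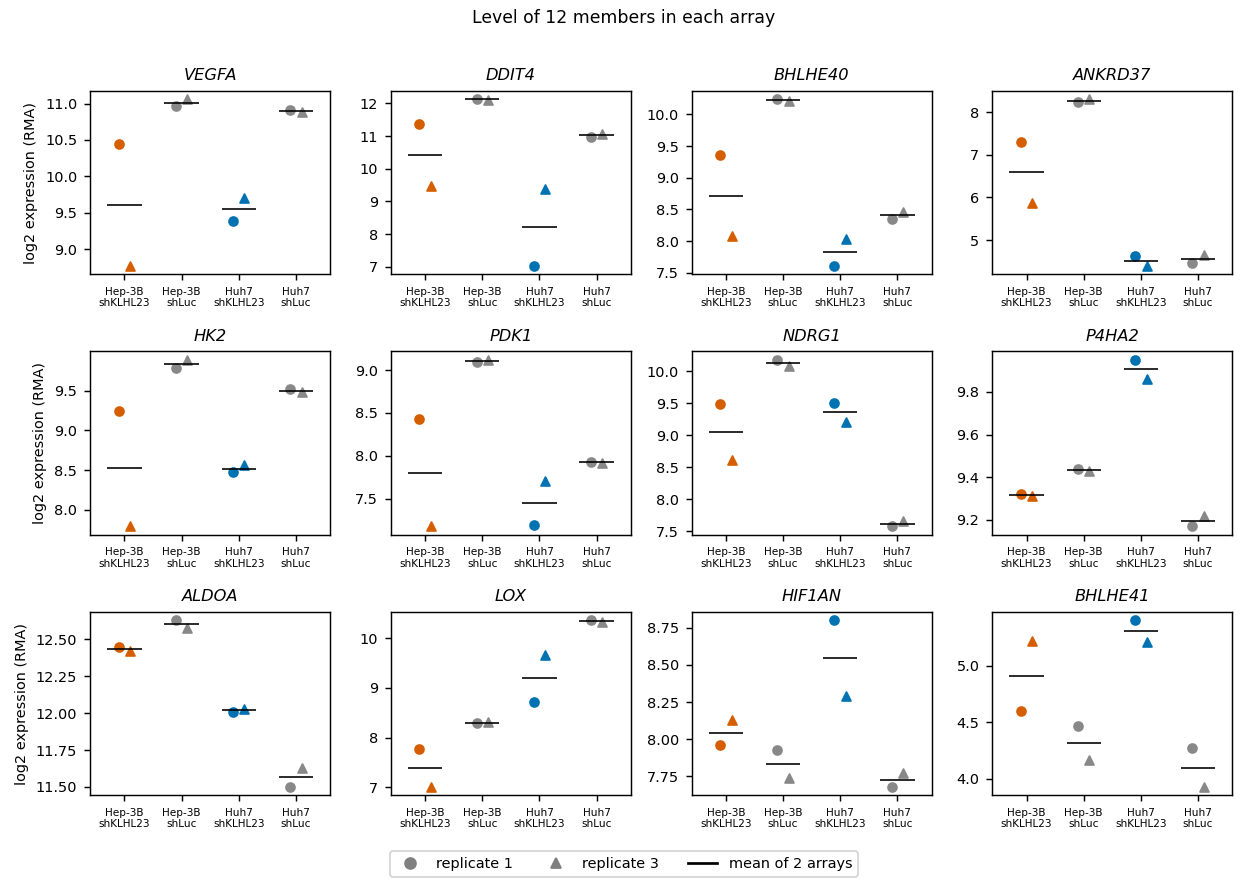
Level of 12 members in each array (log2 RMA expression, vertical axes starting above 0) with circles for replicate 1, triangles for replicate 3 and a line at the mean of the 2 arrays, for Hep-3B shKLHL23, Hep-3B shLuc, Huh7 shKLHL23 and Huh7 shLuc. NDRG1 and P4HA2 lie above their controls in Huh7 and below them in Hep-3B, and VEGFA, DDIT4, HK2 and LOX lie below their controls in both lines.

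Probe sets other than the brightest gave some members more separation in Hep-3B. Of the 126 member probe sets, 101 were lower in Hep-3B and 53 in Huh7, and all probe sets were lower in Hep-3B for 20 of the 35 members with several. With every probe set tested on its own, limma called 8 member probe sets lower in Hep-3B, 1 each for EGLN1, EGLN3, PGK1, ENO1, PDK1, VEGFA, BHLHE40 and BNIP3L, and 0 higher, where it called 0.647% of all 54675 probe sets lower and 0.492% higher. The called PDK1 probe set was 6.24 and 5.10 in Hep-3B shKLHL23, against 7.65 and 7.52 in Hep-3B shLuc (-1.91, adjusted p = 0.0326), and the dim called probe set of EGLN3 was 3.07 and 2.81 in Hep-3B shKLHL23, against 3.98 and 3.85 in Hep-3B shLuc (-0.97, adjusted p = 0.0148). The 4 probe sets of VEGFA differed by -1.73 to -1.41 in Hep-3B and by -1.36 to -0.88 in Huh7.

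The lines were set against each other in 2 ways. Both knockdown arrays lay below both controls in both lines for 14 of 50 members (28%, against 11.7% of all genes) and above in both for 2 members, BHLHE41 and HIF1AN (4%, against 12.4% of all genes). The mean knockdown difference over the lines passed as lower for 12 members (24%, against 8.02% of all genes): ARNT, VHL, SLC2A1, HK2, PDK1, LOX, VEGFA, ADM, BHLHE40, MXI1, DDIT4 and HILPDA. It passed as higher for 3 members (6%, against 7.6% of all genes): HIF1AN, P4HA2 and BHLHE41. Among the genes kept by the filter on dim genes, this mean was called for 28.5% in both directions. With trend and robust moderation, this mean was not called for HK2, PDK1, VEGFA, BHLHE40 and DDIT4. This mean rests on the Hep-3B arrays as well as on those of Huh7, and its calls in both directions, 15 members and 15.6% of all genes with all arrays, covered between 2 and 21 members when 1 array was left out. It was called for 2 members without replicate 1 of Huh7 shLuc (6.64% of all genes), 3 without replicate 3 of Huh7 shLuc (7.05%), 3 without replicate 3 of Hep-3B shLuc (5.91%), 6 without replicate 1 of Hep-3B shLuc (7.30%) and 8 without replicate 1 of Huh7 shKLHL23 (12.6%).

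The difference between the lines, Huh7 minus Hep-3B, was above 0 for 42 of 50 members, with a median of 0.49 where that of all genes was -0.03. At an unadjusted p under 0.05 limma gave 24 members higher (5.62% of all genes) and 0 lower (9.12% of all genes). After adjustment 2 members passed as higher (4%, against 0.445% of all genes) and 0 as lower (0.814% of all genes). They were NDRG1 (2.84, SE 0.34, adjusted p = 0.0116) and P4HA2 (0.82, SE 0.12, adjusted p = 0.0272), and neither passed without any 1 array of Hep-3B shLuc or of Huh7 shLuc. The number past the test was 14 without replicate 1 of Hep-3B shKLHL23 (1.32% of all genes) and 1 without its replicate 3 (0.329% of all genes), against 1.26% of all genes with all arrays. VEGFA, HILPDA, ARNT and PFKP differed between the lines by 0.05, 0.05, -0.03 and -0.05, with a standard error of 0.59 for VEGFA. Both knockdown arrays lay above their controls in Huh7 and below them in Hep-3B for 16 members (32%, against 3.24% of all genes), NDRG1 and P4HA2 included. The other 14 did not pass this test, among them BNIP3L (1.25, SE 0.26, adjusted p = 0.0707), PFKFB4 (1.36, SE 0.38, adjusted p = 0.138) and ENO2 (0.84, SE 0.17, adjusted p = 0.0648).

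**Figure D3:**
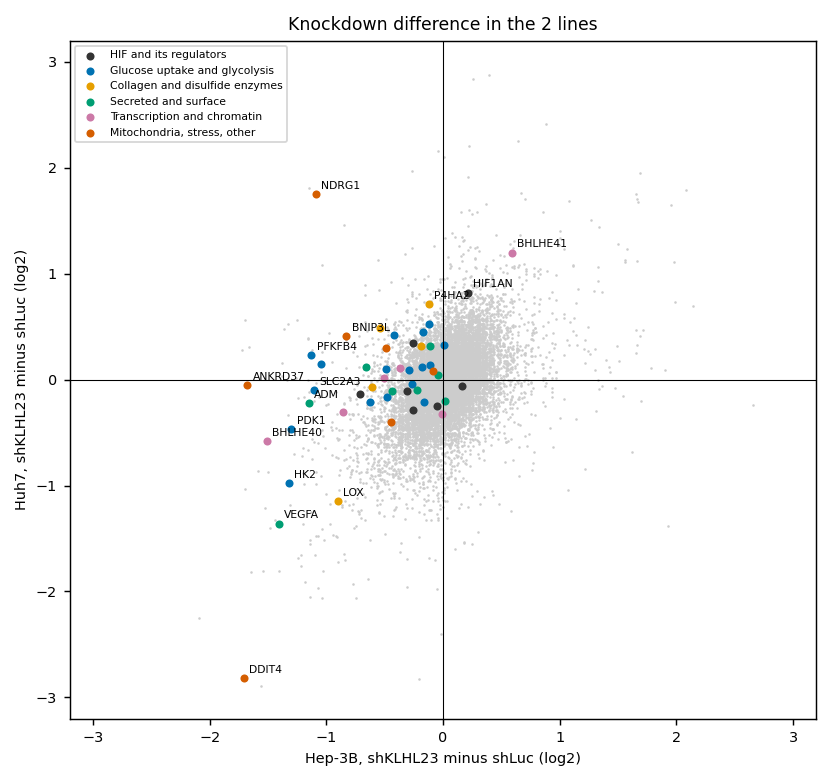
Knockdown difference (log2, shKLHL23 minus shLuc) in Hep-3B on the horizontal and in Huh7 on the vertical axis, with members coloured by role over all genes in grey; 2 genes lie outside the plotted range of 3.2 on each side. Most members lie left of 0, NDRG1 stands alone at upper left (-1.09 and 1.75), and DDIT4, VEGFA, HK2 and LOX lie at lower left.

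The control arrays of the lines differed in these genes before any knockdown. With the Huh7 control set against the Hep-3B control, 27 members were called lower (54%, against 14.9% of all genes) and 3 higher (6%, against 17.7% of all genes), with a median of -0.44 where that of all genes was 0.02. Among the genes kept by the filter on dim genes, 50.1% were called in both directions. SLC2A3 had the largest difference of the members: it was 5.63 and 5.64 in Huh7 shLuc, against 10.15 and 10.15 in Hep-3B shLuc (-4.51, SE 0.27, adjusted p = 4.74e-06). ANKRD37 differed by -3.70 (SE 0.36), the glucose transporter SLC2A1 by -2.87 (SE 0.14, adjusted p = 1.38e-06), NDRG1 by -2.52 (SE 0.24), PFKFB4 by -2.48 (SE 0.27) and the neuronal-type enolase ENO2 by -2.33 (SE 0.12). PFKFB4 was 5.55 and 5.47 in Huh7 shLuc, against 8.04 and 7.93 in Hep-3B shLuc, and ENO2 was 6.38 and 6.65 in Huh7 shLuc, against 8.87 and 8.82 in Hep-3B shLuc. The other 21 lower calls ran between -1.83 (BHLHE40) and -0.33 (PPFIA4). Members higher in the Huh7 control were the platelet-type phosphofructokinase PFKP (1.03, SE 0.09), CA12 (1.16, SE 0.19) and LOX (2.05, SE 0.31). VEGFA, HK2 and DDIT4 differed by -0.11, -0.34 and -1.10 and did not pass. The Huh7 difference and this comparison share the Huh7 control arrays, and the Hep-3B difference shares the Hep-3B control arrays with it, so they are given side by side only. P4HA1 passed here as lower (-0.85, SE 0.17), though it was 0.02 without the x and s probe sets. VHL, also called lower, was -0.14 with no call when those probe sets were left out. The probe sets left for P4HA1 (2.22 to 2.76) and VHL (2.06 to 2.24) lay below the lower quartile of each array (3.08 to 3.12), so these 2 values say little. PPFIA4 was dim, at 3.17 and 3.35 in Huh7 shLuc, where the lower quartile of the array was 3.12 and 3.09. Its call was lost with trend and robust moderation and with the replicate block.

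**Figure D4:**
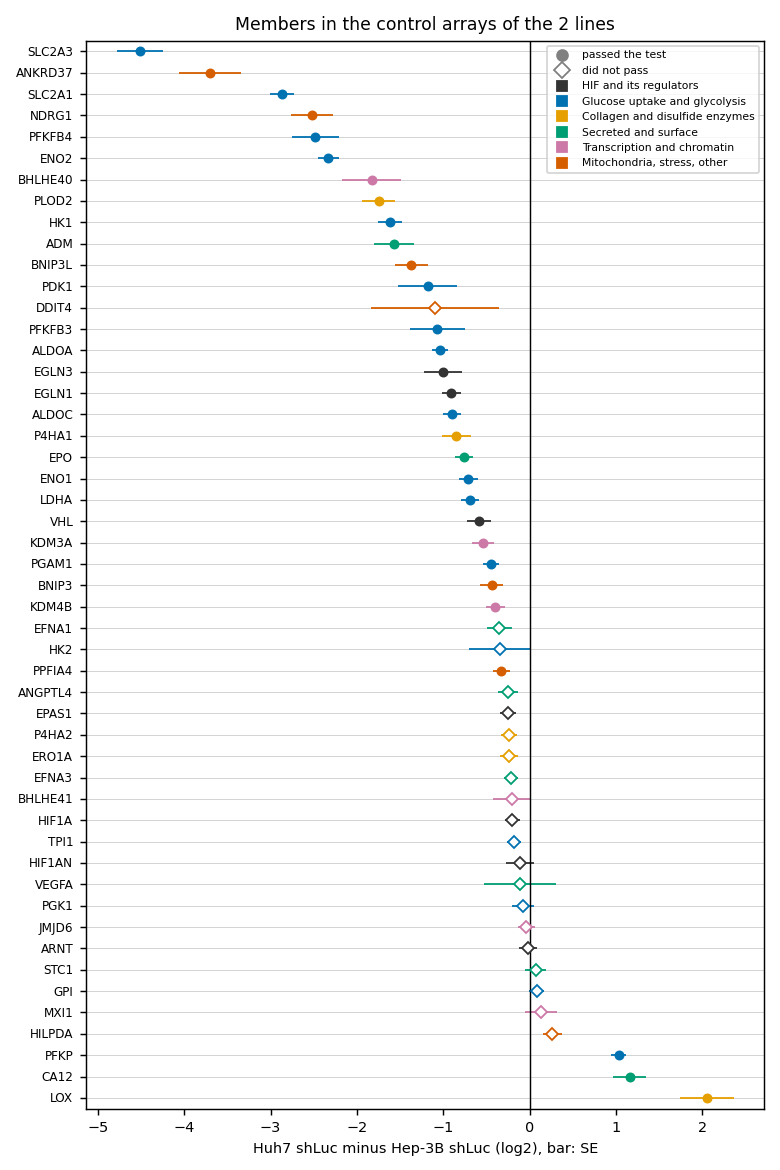
Huh7 shLuc minus Hep-3B shLuc (log2, horizontal axis, bars are the standard error of the fit) for the 50 measured members, coloured by role, with filled circles for those past the test and open diamonds for the others. SLC2A3 at -4.51 and ANKRD37 at -3.70 lie furthest left, and PFKP, CA12 and LOX lie right of 0.

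Other genes of the pathway are described next. Like the members, this list and the glycolytic list after it were chosen with earlier results of these data known. Of 34 further HIF pathway genes and targets, 31 were measured. In Hep-3B, 23 of the 31 were below 0 with a median of -0.31. Limma called 0 in either direction there (0.536% of all genes higher and 0.157% lower). At an unadjusted p under 0.05, 16 were lower (7.75% of all genes) and 2 higher (9.91% of all genes). In Huh7 limma called 4 higher (RBX1, GYS1, TMEM45A and NARF) and 4 lower (VLDLR, RAB20, CUL2 and PLIN2), with a median of 0.06. Over all genes it called 5.75% higher and 7.73% lower in Huh7. VLDLR, a lipoprotein receptor, was 5.35 and 6.08 in Huh7 shKLHL23, against 6.94 and 7.00 in Huh7 shLuc, and 7.11 and 6.34 in Hep-3B shKLHL23, against 7.81 and 7.89 in Hep-3B shLuc. It was thus lower in both lines, by -1.25 in Huh7 (adjusted p = 0.0193) and -1.13 in Hep-3B (adjusted p = 0.0858).

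As a list, the glycolytic genes that are not members were not lower in Hep-3B, where 9 of the 15 measured were above 0 and 6 below. Without overlap, 8 were higher and 3 lower there, against 29.4% and 23.5% of all genes. Some were dim in Hep-3B, such as LDHB (4.08 to 4.19) and PGAM2 (4.09 to 4.25), and the bright GAPDH differed by -0.09. Of 17 such genes, 15 were measured, with a median of 0.09 in Hep-3B and 0.16 in Huh7. Limma called 2 higher in Hep-3B (0.536% of all genes) and 2 in Huh7 (5.75% of all genes). It called 0 lower in Hep-3B (0.157% of all genes) and 0 in Huh7 (7.73% of all genes). At an unadjusted p under 0.05, 0 were lower in either line, against 7.75% of all genes in Hep-3B, a share that leaves few of 15 genes. The hexokinase-like HKDC1 was 8.63 and 9.30 in Hep-3B shKLHL23, against 7.79 and 7.86 in Hep-3B shLuc (1.14, SE 0.18, adjusted p = 0.0396), and rose in Huh7 as well (0.72, SE 0.18, adjusted p = 0.0338). PKLR, the liver-type pyruvate kinase, rose in Hep-3B (0.58, SE 0.09, adjusted p = 0.0399). PKM, the other pyruvate kinase gene, was 10.87 and 10.75 in Huh7 shKLHL23, against 9.86 and 10.04 in Huh7 shLuc (0.86, SE 0.11, adjusted p = 0.00296), and differed by -0.14 in Hep-3B. Its difference between the lines passed (0.99, SE 0.15, adjusted p = 0.0297).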

How the data were processed

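RNA of 8 hepatoma cell samples was hybridised to Affymetrix arrays. The deposited values are log2 expression. The submitters' processing notes name RMA and Affymetrix Expression Console 1.2 as the authors' tools. RMA brings the arrays to nearly the same distribution (array medians here 4.563 to 4.597), so a shift shared by all genes cannot be seen. Of 54675 probe sets, 41097 carry 1 gene symbol, 1801 several and 11777 none in the annotation used here; symbols were checked against RefSeq (GRCh38.p14). The brightest probe set stood for each of 19775 genes. Groups came from the sample titles. Limma 3.58.1 in R 4.3.3 fitted 4 group means to all 8 arrays, with eBayes (4 residual and 4.59 prior degrees of freedom) and Benjamini-Hochberg adjustment over all genes at 0.05; standard errors are the moderated ones, and differences are log2 values. The fit was tested on simulated data. The number of arrays limits the precision: 2 a group allow no exact permutation test past that threshold. Named genes were the members past a knockdown test, the 6 with the largest difference in each line, the core regulators and VEGFA; other members are given as ranges, and other lists by counts with up to 4 called genes. Members and lists were chosen with earlier results of these data known. Promoter windows were searched as letters. Alternatives changed the scaling, filter, probe set choice, weights, moderation, replicate block and arrays included.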

Additional observations from a re-analysis of the deposited data

Results flagged for a closer look

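For 2 members the knockdown difference itself differed between the lines by limma's test of Huh7 minus Hep-3B: NDRG1 (2.84, adjusted p = 0.0116) and P4HA2 (0.82, adjusted p = 0.0272). NDRG1 and P4HA2 were higher in 2 of 2 Huh7 knockdown arrays and lower in 2 of 2 Hep-3B knockdown arrays.

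For 14 more members both Huh7 knockdown arrays lay above their controls and both Hep-3B knockdown arrays below theirs, while the test of that difference did not pass. With NDRG1 and P4HA2 these were 16 of 50 members (32%), against 3.24% of all genes. Among glycolytic genes the difference between the lines was 1.36 for PFKFB4, 0.84 for ENO2, 0.65 for ALDOC, 0.62 for ALDOA, 0.58 for PGK1, 0.37 for LDHA, 0.30 for GPI and 0.25 for TPI1. Among the others it was 1.25 for BNIP3L, 1.03 for P4HA1, 0.79 for BNIP3, 0.51 for ERO1A, 0.48 for KDM4B and 0.43 for EPO. The adjusted p of these 14 ran between 0.0619 (ALDOA) and 0.379 (TPI1).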

How the results depend on the processing

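Of the 18 alternatives, all that keep 1 value a gene left the members' median in Hep-3B below 0 (-0.52 to -0.25), and the number of members called moved with several of them. In Hep-3B, 0 members were called and 137 of all genes. With every probe set tested, 8 members and 623 probe sets passed, and 2 of 33 members did without the x and s probe sets. Array weights gave 12 members and 671 genes, and trend and robust moderation gave 13 members and 850 genes. Leaving out 1 array gave 0 to 20 members and 0 to 1135 genes, and the line fitted alone gave 0 members and 0 genes. In Huh7, 10 members and 2666 genes were called; 3 members without the x and s probe sets, 2 to 15 members and 545 to 3032 genes without 1 array, 4643 probe sets with every probe set tested, and 1578 genes with the line fitted alone. The mean over the lines called 15 members and 3089 genes; 8 members without the x and s probe sets, 2 to 21 members and 1168 to 3784 genes without 1 array, and 5507 probe sets. The difference between the lines called 2 members and 249 genes; 5 members with dim genes filtered out, 6 members and 510 probe sets with every probe set tested, 11 members and 560 genes with trend and robust moderation, and 0 to 14 members and 4 to 521 genes without 1 array. The controls of the lines differed for 30 members and 6457 genes; 16 of 33 members without the x and s probe sets, 23 to 32 members and 4502 to 7047 genes without 1 array, and 14085 probe sets. Without the x and s probe sets 3 called values changed sign: ARNT (0.09) and VHL (0.01) in the mean over the lines and P4HA1 (0.02) between the controls. The probe sets left for VHL and P4HA1 lay below the lower quartile of each array, so their values say little. NDRG1 in Huh7 and HILPDA in the mean over the lines were called under every alternative that gave them a value. Where an array is left out, fewer samples carry the fit; the cause of the other moves was not tested.

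The replicate numbers were not taken as pairs in the main fit. Deviations of same-numbered arrays correlated at -0.0704 in Hep-3B and 0.0617 in Huh7 over all genes. Over the members they correlated at -0.35 in Hep-3B and 0.177 in Huh7. With 2 arrays a group, these correlations cannot decide whether the arrays are paired. With the replicate number as a block within each line, 11 members (423 genes) were called in Hep-3B and 5 in the difference between the lines, and the other 3 comparisons stayed within 1.5 times their counts.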
